A study of Mus musculus with 9 samples.

Results

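The lecticans, the link proteins and the tenascins are extracellular matrix genes of the brain, and 10 of them were followed across mouse central nervous system development. They were the 4 lectican genes (Acan, Bcan, Ncan and Vcan), the 4 link protein genes (Hapln1, Hapln2, Hapln3 and Hapln4) and the tenascin genes Tnc and Tnr, taken by their symbols from the 45706 gene identifiers of the deposited count table. All 10 were found, and all 10 were among the 17971 genes that passed the filter on low counts. The study sampled C57BL6/J mice, with no treatment or altered allele named in the labels, at 2 embryonic stages (E9.5 and E14.5, named by embryonic day) and in the adult (P60, postnatal day 60), with 3 libraries of whole tissue per stage. Dissection differed by stage: embryo heads, severed caudal to the fourth ventricle and trimmed of most tissue that was not neuroectoderm, were used at E9.5, brains freed of meninges at E14.5, and at P60 tissue taken after ketamine and xylazine anaesthesia and perfusion with buffered saline. What was dissected thus changed with age, and the 2 cannot be told apart. Whether each library came from its own animal is not stated in the labels, so p-values reflect the spread among these libraries only.

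Lecticans are chondroitin sulfate proteoglycans that bind the long sugar chain hyaluronan at one end. Link proteins clamp the lectican to hyaluronan, and tenascins bind the other end of lecticans and cross-link them, so that the 3 families together build the soft, fibre-poor matrix of the brain. In the adult this matrix condenses into perineuronal nets around some neurons, mainly fast-spiking interneurons, and into coats at synapses and at nodes of Ranvier.

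The library totals were 30481975 to 35619093 counts. Levels are given as CPM, the count of a gene scaled to a common library total. As a check of the labelled tissue, the summed level of 7 neuronal markers was 222 to 248 CPM at E9.5, 5930 to 6370 CPM at E14.5 and 5850 to 6490 CPM at P60, and that of 8 neural progenitor markers was 1350 to 1660, 1840 to 2630 and 261 to 324 CPM at the same stages. The E9.5 libraries also held markers of other tissues, with 4230 to 5730 CPM of 6 red blood cell genes, 819 to 1010 CPM of 10 mesenchyme genes and 681 to 748 CPM of 8 cartilage and notochord genes. The same sums at E14.5 were 367 to 707, 543 to 1020 and 120 to 194 CPM, so the mesenchyme sums of both embryonic stages overlapped. E9.5 replicate 1 stood apart with 338 CPM of 6 heart muscle genes, against 5.64 and 5.49 CPM in replicates 2 and 3.

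The set was rebuilt from stage to stage. Per length of exon, the highest means were those of versican (Vcan) and Hapln1 at E9.5, of neurocan (Ncan), then tenascin-C (Tnc) and Vcan, at E14.5, and of brevican (Bcan), Hapln4, Hapln2 and Ncan at P60. All 10 genes differed across the 3 stages (edgeR quasi-likelihood F test, adjusted p between 1.9e-09 and 7.5e-05), as did 91.5% of all genes tested. At E14.5 against E9.5, 6 of the 10 genes were higher and 4 lower, against a background of 34% of all genes higher and 30.7% lower (64.6% in either direction). At P60 against E14.5, 5 were higher, 3 lower and 2 passed in neither direction, against 36.7% of all genes higher and 39.4% lower (76.1% in either direction). At P60 against E9.5, 7 were higher and 3 lower, against 42% of all genes higher and 40.6% lower (82.6% in either direction). The median log2 fold change of the 10 genes was 1.89, 1.49 and 2.54 in these comparisons, beside medians over all genes of 0.03, -0.06 and 0.05. The first and the second comparison share the E14.5 libraries, so an unusual E14.5 library enters both. In whole tissue, fewer cells of a type and less RNA per cell cannot be told apart.

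**Figure D1:**
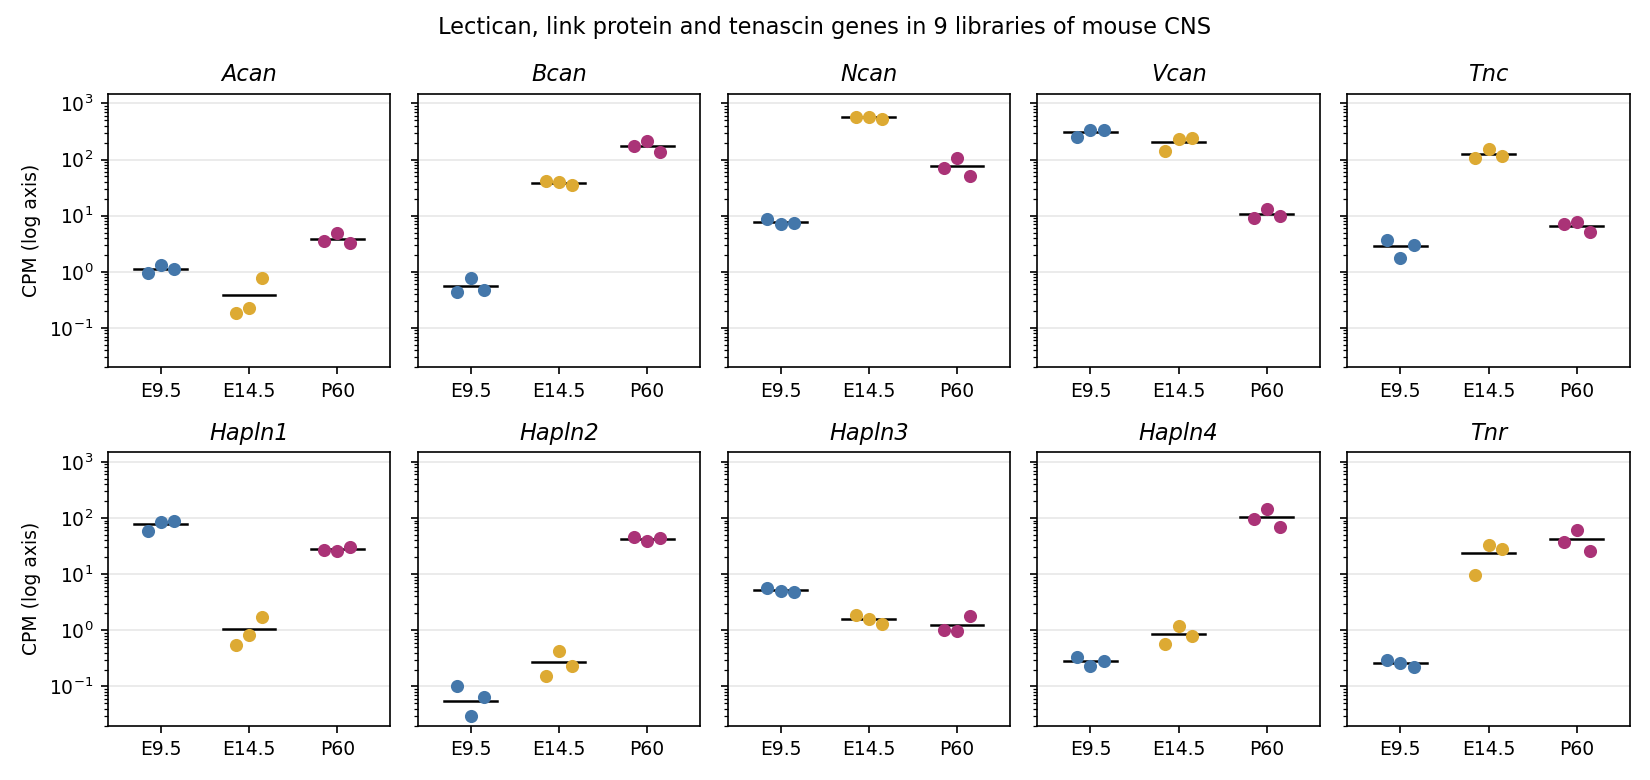
Level of each of the 10 genes in each library, in CPM on a log axis, by stage. Points are the 3 libraries of a stage in replicate order and the horizontal line is their mean; Hapln2 in E9.5 replicate 2 had 0 counts and is drawn at 0.03. Ncan and Tnc were highest at E14.5, Bcan, Hapln2, Hapln4 and Tnr had their highest mean at P60, Vcan, Hapln1 and Hapln3 had theirs at E9.5, and Acan and Hapln1 had their lowest mean at E14.5.

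Counting only called changes, Bcan, Hapln2 and Hapln4 rose in both steps, which 14.8% of all genes did. Ncan and Tnc rose and then fell (11.5% of all genes), Acan and Hapln1 fell and then rose (8.59%), and Vcan fell in both steps (14.6%). Tnr rose and Hapln3 fell in the first step, with no call in the second. No family moved as one, since each of the lecticans had a different order of the 3 stages by mean level.

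Sequence upstream of 5 genes is shown because they carry the main time courses: Vcan with its fall, Ncan and Tnc with their E14.5 maximum, and Bcan and Hapln2, which lie next to each other on chromosome 3 and rose in both steps. Each run reads 5′ to 3′ on the strand of the gene and ends upstream of the annotated transcripts. It was taken from the RefSeq promoter set for GRCm38.p6. Capitals mark matches, on either strand, to 4 short motifs. These were TATAAA, found near the start of some core promoters, and CCAAT, bound by the nuclear factor Y complex. The others were AACAAT, which is recognised by Sox factors, and GGGCGG, which is bound by Sp factors. In the printed runs the matches do not overlap, while in Hapln3, whose run is not shown, the match to AACAAT overlaps another.
Vcan, chr13:89742513-89742762, minus strand: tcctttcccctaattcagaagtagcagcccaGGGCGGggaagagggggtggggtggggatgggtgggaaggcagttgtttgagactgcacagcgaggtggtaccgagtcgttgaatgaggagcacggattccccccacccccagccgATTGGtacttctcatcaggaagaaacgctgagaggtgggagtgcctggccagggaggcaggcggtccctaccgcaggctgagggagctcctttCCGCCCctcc
Ncan, chr8:70120874-70121094, minus strand: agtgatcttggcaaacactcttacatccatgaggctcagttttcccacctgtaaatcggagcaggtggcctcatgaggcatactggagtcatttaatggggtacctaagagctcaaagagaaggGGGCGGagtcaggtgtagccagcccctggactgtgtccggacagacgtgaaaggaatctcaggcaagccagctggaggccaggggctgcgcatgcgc
Bcan, chr3:88000357-88000606, minus strand: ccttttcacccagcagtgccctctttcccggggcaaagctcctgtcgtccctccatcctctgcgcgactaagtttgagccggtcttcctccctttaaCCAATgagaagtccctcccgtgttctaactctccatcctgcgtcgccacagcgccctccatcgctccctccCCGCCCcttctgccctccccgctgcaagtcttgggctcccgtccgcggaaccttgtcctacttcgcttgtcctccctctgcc
Hapln2, chr3:88027584-88027761, minus strand: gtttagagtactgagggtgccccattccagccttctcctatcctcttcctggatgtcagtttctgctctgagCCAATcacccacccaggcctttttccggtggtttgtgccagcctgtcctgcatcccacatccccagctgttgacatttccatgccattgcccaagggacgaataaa
Tnc, chr4:64047016-64047265, minus strand: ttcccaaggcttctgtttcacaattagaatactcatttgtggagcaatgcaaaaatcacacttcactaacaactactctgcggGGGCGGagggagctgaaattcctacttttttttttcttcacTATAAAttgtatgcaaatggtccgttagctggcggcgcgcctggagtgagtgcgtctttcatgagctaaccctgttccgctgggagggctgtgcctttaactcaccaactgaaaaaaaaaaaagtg
Of the 10 genes, 9 had an entry in that set, and Hapln4 is named only. In the 250 bases before the RefSeq start, GGGCGG was found in 5 of the 9 (Acan, Bcan, Ncan, Tnc and Vcan) and in 32.7% of all 32851 such windows. CCAAT was found in 4 (Acan, Bcan, Hapln2 and Vcan) and in 33.8% of windows. TATAAA was found in 3 (Hapln3, Ncan and Tnc) and in 12.4% of windows, and AACAAT in 2 (Hapln2 and Hapln3) and in 9.42% of windows. The TATAAA of Ncan, 11 bases before the RefSeq start, and the AACAAT of Hapln2, 57 bases before it, lie downstream of the printed runs. Ncan and Tnc, both highest at E14.5, each held GGGCGG and TATAAA, and Vcan and Bcan, whose courses were opposite, each held CCAAT and GGGCGG. A match of letters is a description of the window and not evidence of binding.

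Versican (Vcan; ENSMUSG00000021614; GRCm38 chr13:89655312-89742509, minus strand) is the lectican of loose embryonic tissue and of migrating cells, made in the embryo by mesenchyme as well as by neural cells. It had 247, 330 and 332 CPM in the 3 E9.5 libraries, 139, 230 and 242 CPM at E14.5 and 9.27, 13.1 and 9.99 CPM at P60. The P60 libraries were far below all others, and the highest E14.5 library lay just under the lowest E9.5 library. At P60 Vcan averaged 10.8 ± 2.02 CPM, against 204 ± 56.7 CPM at E14.5 (SD, n = 3 each), a log2 fold change of -4.24 ± 0.26 (SE; adjusted p = 1.5e-07). The earlier step was small, a log2 fold change of -0.57 ± 0.23 at E14.5 against E9.5 (adjusted p = 0.046). That first call was lost under 9 of 19 other settings, among them leaving out E9.5 replicate 2 or 3 (log2 -0.51 and -0.50), E14.5 replicate 1 or 2 (-0.35 and -0.66) or P60 replicate 1 or 3 (-0.55 both), or fitting only the 6 libraries of both stages (-0.58), with adjusted p of 0.0054 to 0.13 over the 19. Summed mesenchyme markers were 819 to 1010 CPM at E9.5, 543, 755 and 1020 CPM at E14.5 and 107 to 117 CPM at P60. Of the 10 markers, 5 were called lower and 2 higher in the first step, against 30.7% and 34% of all genes. In the second step 8 were called lower and 2 higher, against 39.4% and 36.7%. E14.5 replicate 1 was lowest of its stage for Vcan, as it was for 7 of the 10 genes studied, and for these summed markers. Their part in the Vcan values was not tested.

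Neurocan (Ncan; ENSMUSG00000002341; chr8:70093085-70120873, minus strand) is the lectican of the fetal and juvenile brain, made by neurons and glia. It had 8.8, 6.97 and 7.53 CPM at E9.5, 579, 576 and 527 CPM at E14.5 and 70, 107 and 50.6 CPM at P60. The stages did not overlap, and the 3 E14.5 libraries lay close together while the P60 libraries spread over a 2.11-fold range. Ncan averaged 561 ± 29.4 CPM at E14.5, against 7.77 ± 0.941 CPM at E9.5, a 72.2-fold rise (log2 6.17 ± 0.29; adjusted p = 3.8e-08). It averaged 75.8 ± 28.6 CPM at P60, and so was 7.4-fold lower there than at E14.5 (log2 -2.89 ± 0.25; adjusted p = 1.7e-06). The P60 tissue still held 9.75 times the E9.5 level (log2 3.29 ± 0.26; adjusted p = 4.1e-07). Neuronal markers summed to 5850 to 6490 CPM at P60 and 5930 to 6370 CPM at E14.5. Of the 7, 3 were called higher and 4 lower at P60, against 36.7% and 39.4% of all genes. The like sums hid opposite changes. Snap25 had 3180, 3200 and 3070 CPM at P60, against 96.4, 115 and 97.3 CPM at E14.5. Dcx had 3.9, 8.84 and 4.42 CPM at P60, against 880, 1520 and 1420 CPM at E14.5. The part of neuron number in the Ncan values was not tested.

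Brevican (Bcan; ENSMUSG00000004892; chr3:87987531-88000230, minus strand) is the lectican with the shortest core protein, deposited around synapses and in nets by astrocytes and neurons. It had 0.435, 0.763 and 0.479 CPM at E9.5, 42.1, 39.4 and 34.6 CPM at E14.5 and 174, 210 and 138 CPM at P60. Every library of a stage lay above every library of the stage before. Bcan averaged 38.7 ± 3.8 CPM at E14.5, against 0.559 ± 0.178 CPM at E9.5, a 68.9-fold rise (log2 6.11 ± 0.26; adjusted p = 2e-08). It averaged 174 ± 35.8 CPM at P60, 4.49-fold above E14.5 (log2 2.17 ± 0.19; adjusted p = 2.3e-06). Most of the 309-fold rise from E9.5 to P60 on a log scale was therefore in place by E14.5. Summed astrocyte markers were 99.8 to 112 CPM at E9.5, 303 to 475 CPM at E14.5 and 2270 to 2800 CPM at P60. Of the 8 markers, 6 were called higher in the first step and 7 in the second, and 0 lower. The shares of all genes called higher were 34% and 36.7%. Fgfr3, called in neither step, had 68.1, 64.4 and 76 CPM at E9.5 and so made up most of the sum there. Most of the E14.5 sum was Slc1a3, Slc1a2 and Fgfr3, which averaged 134, 133 and 86.7 CPM. Gfap and Agt averaged only 2.42 and 0.174 CPM at E14.5, though both were called higher there than at E9.5. Aqp4 averaged 1.53 CPM at E14.5, against 2.16 CPM at E9.5, and was not called in that step. The astrocyte marker Agt had 0 counts in E9.5 replicates 2 and 3. The part of astrocyte number in the Bcan values was not tested.

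Aggrecan (Acan; ENSMUSG00000030607; chr7:79053483-79115099, plus strand) is the large proteoglycan of cartilage and a core component of perineuronal nets. It was rare at all stages, with 0.937, 1.33 and 1.12 CPM at E9.5, 0.181, 0.224 and 0.777 CPM at E14.5 and 3.5, 4.85 and 3.3 CPM at P60. The E14.5 values rest on 6, 8 and 27 counts, and replicate 3 stood 4.29-fold above replicate 1. At P60 Acan averaged 3.88 ± 0.841 CPM, against 0.394 ± 0.332 CPM at E14.5, a 9.76-fold difference (log2 3.29 ± 0.45; adjusted p = 5.4e-05). At E14.5 it was 2.84-fold below its E9.5 level of 1.13 ± 0.195 CPM (log2 -1.50 ± 0.46; adjusted p = 0.015). Without E14.5 replicate 3 the 2 changes were larger, at log2 4.23 and -2.44, and without E14.5 replicate 2 the first-step call was lost (log2 -1.21; adjusted p = 0.06). Cartilage and notochord markers summed to 681 to 748 CPM at E9.5, 120 to 194 CPM at E14.5 and 7.97 to 9.75 CPM at P60. Of 7 tested, 1 was called higher and 4 lower at E14.5 than at E9.5, against 34% and 30.7% of all genes. At P60 against E14.5, 3 were called higher and 4 lower, against 36.7% and 39.4% of all genes. Most of the sum was Col2a1, the main cartilage collagen, and the notochord marker Noto had 0, 1 and 0 counts at E9.5 and 0 in the other libraries. T, another notochord marker, was low but present, with 34, 24 and 24 counts in the E9.5 libraries. It was called lower in both steps (log2 -1.21 and -4.8), and the P60 libraries held 0, 0 and 1 counts of it. The 8 listed markers of net-bearing fast-spiking interneurons summed to 878 to 1080 CPM at P60, against 231 to 322 CPM at E14.5. Of these, 7 were called higher and 1, Erbb4, lower, against 36.7% and 39.4% of all genes. The members differed widely, as Pvalb averaged 235 CPM at P60 against 0.998 CPM at E14.5, and Gad1 369 against 98.1 CPM. The part of either cell type in the Acan values was not tested.

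Of the link protein genes, Hapln1, Hapln2 and Hapln4 rose at P60 against E14.5 and Hapln3 did not pass the test in that step. Hapln1 (ENSMUSG00000021613; chr13:89539796-89611652, plus strand), first known from cartilage and later from nets, had 59.2, 85 and 89.7 CPM at E9.5, 0.543, 0.839 and 1.73 CPM at E14.5 and 26.6, 25.9 and 30.2 CPM at P60. The stages did not overlap, and the E14.5 libraries were lowest. At E14.5 it averaged 1.04 ± 0.615 CPM, against 78 ± 16.4 CPM at E9.5, a 74.8-fold fall (log2 -6.23 ± 0.36; adjusted p = 1.3e-07). At P60 it averaged 27.6 ± 2.29 CPM, 26.4-fold above E14.5 (log2 4.72 ± 0.34; adjusted p = 4.8e-07), and this adult level was 2.83-fold below that of E9.5 (log2 -1.50 ± 0.28; adjusted p = 0.00044). The cartilage and notochord markers, whose sums and calls are given with Acan, moved in both directions in each step. Col2a1 had 555, 562 and 608 CPM at E9.5, 84.1, 121 and 144 CPM at E14.5 and 1, 1.06 and 1.15 CPM at P60. Col9a1 also stepped down, with 42.5 to 57.6 CPM at E9.5, 1.81 to 2.27 CPM at E14.5 and 0.433 to 0.705 CPM at P60. So did Col11a1, with 74.6 to 80.5, 33.2 to 44.6 and 2.2 to 2.63 CPM. Matn1, Comp and Cnmd were highest at P60 but held at most 0.413, 0.589 and 4.54 CPM in any library. The part of cartilage and notochord cells in the Hapln1 values was not tested.

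Hapln2 (ENSMUSG00000004894; chr3:88021750-88027583, minus strand), also called Bral1, is the link protein of the nodes of Ranvier on myelinated axons. It had 0.1, 0 and 0.0638 CPM at E9.5, from 3, 0 and 2 counts, then 0.151, 0.42 and 0.23 CPM at E14.5 and 46.2, 39.2 and 43.8 CPM at P60. The adult libraries stood far above every embryonic one. At P60 Hapln2 averaged 43.1 ± 3.57 CPM, against 0.267 ± 0.138 CPM at E14.5, a 158-fold rise (log2 7.30 ± 0.34; adjusted p = 2.6e-08). The earlier rise, to 0.267 ± 0.138 CPM at E14.5 against 0.0548 ± 0.0508 CPM at E9.5, passed the test (log2 2.22 ± 0.63; adjusted p = 0.0095) but rests on a few counts per library. The fitted value moved between 1.67 and 3.21 when libraries were left out, and was 2.93 without E9.5 replicate 1. The adjusted p was 0.0047 to 0.041 over the 18 other settings that gave a value. Myelinating oligodendrocyte markers summed to 13800 to 16100 CPM at P60, against 66.5 to 90.7 CPM at E14.5. Of these markers, 8 of 8 were called higher, against 36.7% of all genes. The marker Opalin was at 0 in E9.5 replicates 2 and 3. In P60, Hapln2 and the marker sum had the same order of libraries, replicate 1 above 3 above 2. The part of oligodendrocyte number in the Hapln2 values was not tested.

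Hapln4 (ENSMUSG00000007594; chr8:70083457-70090862, plus strand), also called Bral2, is a link protein of nets and of inhibitory synapses in the brainstem and cerebellum, made by neurons. It had 0.335, 0.232 and 0.287 CPM at E9.5, 0.573, 1.18 and 0.777 CPM at E14.5 and 96.1, 142 and 70.4 CPM at P60. Like Hapln2, it was an adult gene, and no stage overlapped another. At P60 Hapln4 averaged 103 ± 36.1 CPM, against 0.842 ± 0.306 CPM at E14.5, a 121-fold rise (log2 6.92 ± 0.34; adjusted p = 3.7e-08). The first step was 2.94-fold (log2 1.56 ± 0.43; adjusted p = 0.0085). The summed interneuron markers were 997, 1080 and 878 CPM in the P60 libraries, against 231, 322 and 288 CPM at E14.5. Of these markers, 7 of 8 were called higher and 1 lower, against 36.7% and 39.4% of all genes. The P60 sums had the order of Hapln4, replicate 2 above 1 above 3, which Acan, Bcan, Ncan, Tnc and Tnr also had. Single markers differed in this order, as Kcnc1 had 110, 140 and 77 CPM but Pvalb 280, 156 and 270 CPM. The part of these interneurons in the Hapln4 values was not tested.

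Hapln3 (ENSMUSG00000030606; chr7:79115102-79131018, minus strand), the link protein expressed mainly outside the brain, behaved differently from its relatives. It had 5.66, 4.94 and 4.85 CPM at E9.5, 1.84, 1.57 and 1.32 CPM at E14.5 and 1, 0.969 and 1.77 CPM at P60. The E9.5 libraries lay above all others, while the P60 and E14.5 libraries overlapped. At E14.5 Hapln3 averaged 1.58 ± 0.258 CPM, against 5.15 ± 0.441 CPM at E9.5, a 3.26-fold fall (log2 -1.71 ± 0.26; adjusted p = 0.00018). At P60 it averaged 1.25 ± 0.453 CPM, and the difference from E14.5 did not pass the test (log2 -0.33 ± 0.27; adjusted p = 0.28). Without P60 replicate 3, the highest adult library, it did (log2 -0.68; adjusted p = 0.028).

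Tenascin-C (Tnc; ENSMUSG00000028364; chr4:63959785-64047015, minus strand) is the tenascin of radial glia and of germinal zones. It had 3.68, 1.76 and 3.03 CPM at E9.5, 105, 156 and 117 CPM at E14.5 and 6.97, 7.7 and 5.22 CPM at P60. All E14.5 libraries lay far above all others. Tnc averaged 126 ± 26.4 CPM at E14.5, against 2.82 ± 0.979 CPM at E9.5, a 44.5-fold rise (log2 5.48 ± 0.30; adjusted p = 8.6e-08). It averaged 6.63 ± 1.27 CPM at P60, 19-fold below E14.5 (log2 -4.25 ± 0.28; adjusted p = 2.3e-07) and 2.34-fold above E9.5 (log2 1.23 ± 0.27; adjusted p = 0.0014). The progenitor markers summed to 1350 to 1660 CPM at E9.5, where Tnc was lowest, and to 1840 to 2630 CPM at E14.5. Between these stages 2 of 8 were called higher and 1 lower, against 34% and 30.7% of all genes. From E14.5 to P60, 7 of these 8 were called lower and 1 higher, against 39.4% and 36.7% of all genes. Their part in the Tnc values was not tested.

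Tenascin-R (Tnr; ENSMUSG00000015829; chr1:159523769-159931729, plus strand) is the tenascin restricted to the nervous system, made by oligodendrocytes and by some interneurons and a cross-linker of nets. It had 0.301, 0.265 and 0.223 CPM at E9.5, 9.65, 32.8 and 28.2 CPM at E14.5 and 37.5, 60.9 and 26 CPM at P60. The embryonic stages were far apart, but the E14.5 libraries differed among themselves by 3.4-fold and reached into the adult range. Tnr averaged 23.6 ± 12.3 CPM at E14.5, against 0.263 ± 0.0389 CPM at E9.5, an 88.4-fold rise (log2 6.47 ± 0.59; adjusted p = 3.6e-06). At P60 it averaged 41.5 ± 17.8 CPM, and the difference from E14.5 did not pass the test (log2 0.81 ± 0.40; adjusted p = 0.087). It passed under 4 of 19 other settings, among them those without E14.5 replicate 2 (log2 1.12; adjusted p = 0.043), without P60 replicate 3 (1.04; 0.048) and with upper quartile scaling (0.96; 0.045), and adjusted p ranged from 0.025 to 0.37 over the 19. Myelinating oligodendrocyte markers summed to 13800 to 16100 CPM at P60, against 66.5 to 90.7 CPM at E14.5 (8 of 8 called higher, and 36.7% of all genes). Oligodendrocyte precursor markers summed to 206 to 335 CPM, against 72.4 to 102 CPM (3 of 6 higher, 0 lower). The interneuron markers summed to 878 to 1080 CPM, against 231 to 322 CPM (7 of 8 higher, 1 lower). The share of all genes called lower in this step was 39.4%. The part of these cells in the Tnr values was not tested.

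**Figure D2:**
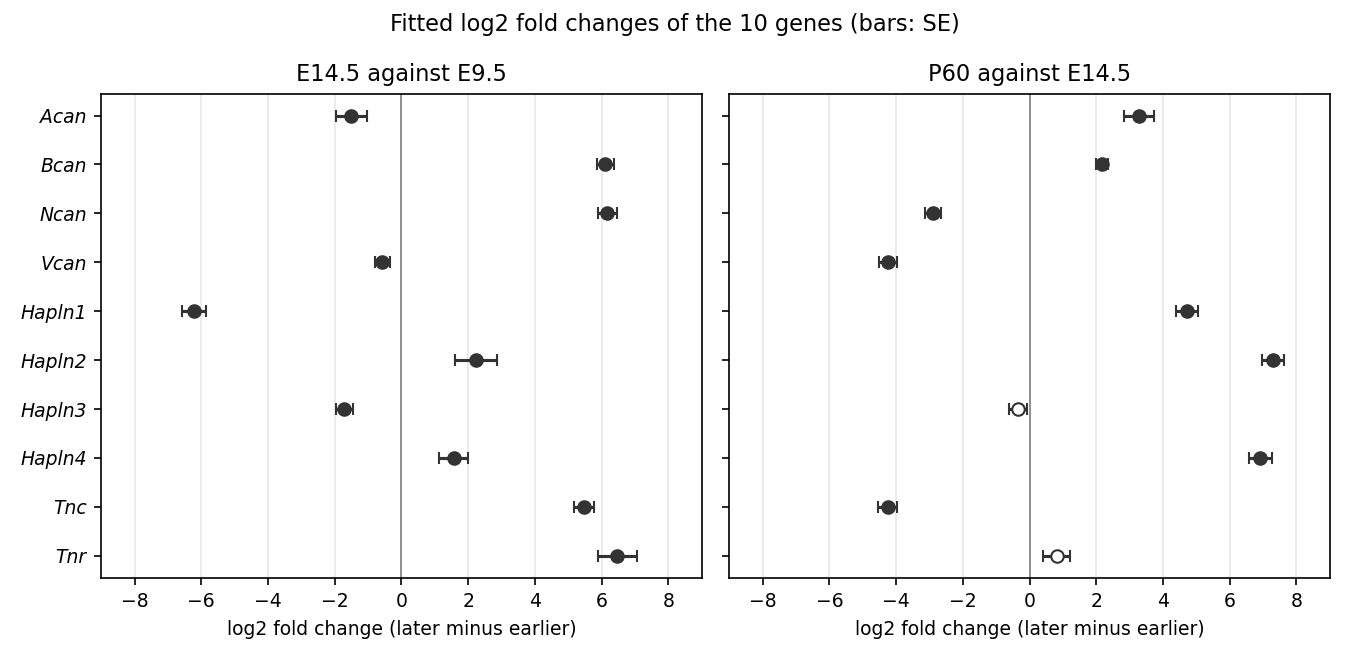
Fitted log2 fold change of each gene at E14.5 against E9.5 (left) and at P60 against E14.5 (right), later stage minus earlier stage. Bars are the standard error of the fit over 9 libraries; filled points passed an adjusted p of 0.05 and open points (Hapln3 and Tnr in the second step) did not. Hapln1 had the lowest value of the first step, -6.23, and Hapln2 the highest of the second, 7.30.

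Libraries of the compared stages did not overlap for all 10 genes at E14.5 against E9.5 (72.1% of all genes), for 8 of 10 at P60 against E14.5 (76.3%) and for all 10 at P60 against E9.5 (84.9%). Hapln3 and Tnr were the exceptions.

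To set the genes against each other, levels were divided by the summed exon length of each gene and are given as CPM per kb. At E9.5 the order by mean was Vcan (21.0 ± 3.37 CPM per kb), Hapln1 (13.2 ± 2.78), Hapln3 (1.47 ± 0.125), Ncan (1.08 ± 0.131) and Tnc (0.363 ± 0.126), with the other 5 genes at 0.151 or less. Acan and Bcan overlapped at this stage, as did Hapln2 and Tnr. At E14.5 the order was Ncan (77.9 ± 4.08 CPM per kb), Tnc (16.2 ± 3.4), Vcan (14.1 ± 3.92), Bcan (9.53 ± 0.935) and Tnr (1.83 ± 0.954), with all 4 link proteins and Acan at 0.449 or less. Ncan and Tnr stood clear of their neighbours in this order, whereas Tnc overlapped Vcan and Vcan overlapped Bcan. At P60 the order was Bcan (42.8 ± 8.81 CPM per kb), Hapln4 (26.2 ± 9.2), Hapln2 (18.2 ± 1.51), Ncan (10.5 ± 3.97), Hapln1 (4.67 ± 0.389) and Tnr (3.22 ± 1.38), with Tnc, Vcan, Acan and Hapln3 at 0.853 or less. Bcan overlapped Hapln4 and Hapln4 overlapped Hapln2, as did Hapln1 and Tnr, and each neighbouring pair among the last 4.

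Within the lecticans the leading gene changed at each stage. Vcan made up 93.7 ± 1.39% of the summed lectican level per kb at E9.5, 13.9 ± 3.86% at E14.5 and 1.39 ± 0.227% at P60 (SD, n = 3 each). Ncan made up 4.97 ± 1.42%, 76.7 ± 3.04% and 18.9 ± 2.65% at the same stages, and Bcan 0.613 ± 0.149%, 9.38 ± 0.862% and 78.8 ± 2.53%. Acan stayed at or below 1.05% in every library. Within the tenascins, Tnr made up 5.78 ± 2.25%, 9.75 ± 3.94% and 78.1 ± 4.08%, so that the log2 ratio of Tnr to Tnc per kb was 1.85 ± 0.36 at P60, against -3.31 ± 0.75 at E14.5. Among the link proteins Hapln1 held 89.0 ± 3.3% at E9.5, and Hapln4 and Hapln2 held 52.0 ± 10.3% and 37.6 ± 7.82% at P60. Hapln3 held the highest mean share at E14.5, 48.1 ± 13.3%, of a total that was then very small.

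**Figure D3:**
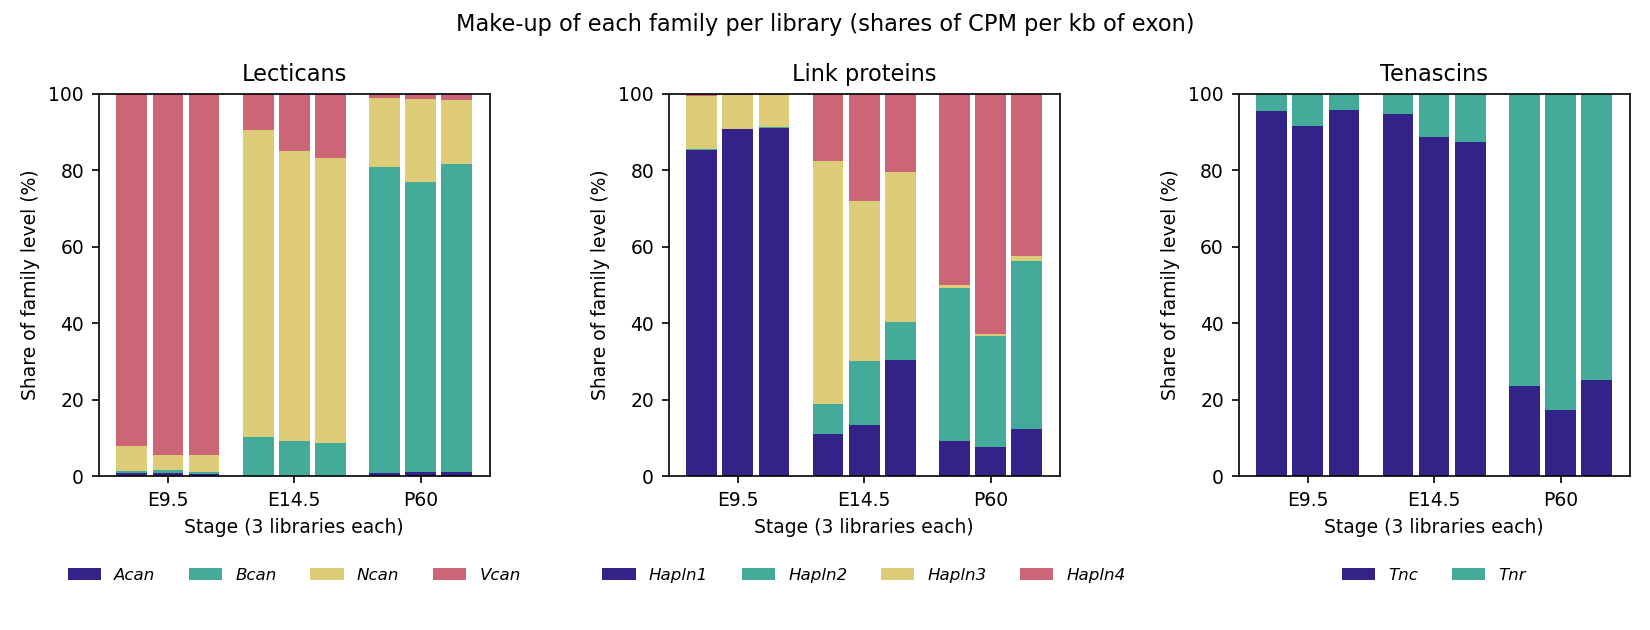
Share of each gene in the summed level of its family per library, in percent of CPM per kb of exon; each bar is 1 library, 3 per stage. The largest lectican share was Vcan at E9.5, Ncan at E14.5 and Bcan at P60, and the largest tenascin share was Tnc at both embryonic stages and Tnr at P60.

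The link protein total went down where the lectican and tenascin totals were highest. Summed lectican level was 22.3 ± 3.3 CPM per kb at E9.5, 102 ± 3.72 at E14.5 and 54.6 ± 13 at P60, and summed tenascin level was 0.384 ± 0.127, 18.0 ± 4.21 and 4.07 ± 1.54. Summed link protein level was 14.8 ± 2.63, 0.951 ± 0.12 and 49.4 ± 7.66 CPM per kb at the same stages. The ratio of link protein to lectican level was 0.636, 0.657 and 0.687 in the E9.5 libraries, 0.00821, 0.0101 and 0.00978 in those of E14.5, and 0.911, 0.843 and 0.997 in those of P60. The 3 stages did not overlap in this ratio, and the E14.5 libraries were far below the others. The ratio follows from the members' own levels above and is given as a description.

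In the mouse genome each lectican gene lies beside a link protein gene, with 0 protein-coding genes between them. Acan and Hapln3 lie tail to tail 2 bases apart, Ncan and Hapln4 tail to tail 2222 bases apart, and Vcan and Hapln1 tail to tail 43659 bases apart, while Bcan and Hapln2 share a strand and lie 21519 bases apart. Neighbours did not keep a constant ratio. The log2 ratio of Hapln1 to Vcan per kb was -0.68 ± 0.09 at E9.5, -6.45 ± 0.53 at E14.5 and 2.66 ± 0.33 at P60. For Hapln4 to Ncan it was -3.90 ± 0.11, -8.57 ± 0.52 and 1.32 ± 0.04, and the adult libraries had the order replicate 2 above 1 above 3 in both genes, as they did in Acan, Bcan, Tnc and Tnr. For Hapln3 to Acan it was 3.29 ± 0.36, 3.40 ± 1.36 and -0.59 ± 0.72. For Hapln2 to Bcan it was -6.53 ± 0.79 at E14.5 and -1.22 ± 0.39 at P60, with no value in the E9.5 library where Hapln2 had 0 counts. Bcan and Hapln2 were the pair in which both genes rose in both steps. Whether reads were assigned by strand is not given in the sources used here, and the transcripts of Acan and Hapln3 end 2 bases apart.

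**Figure D4:**
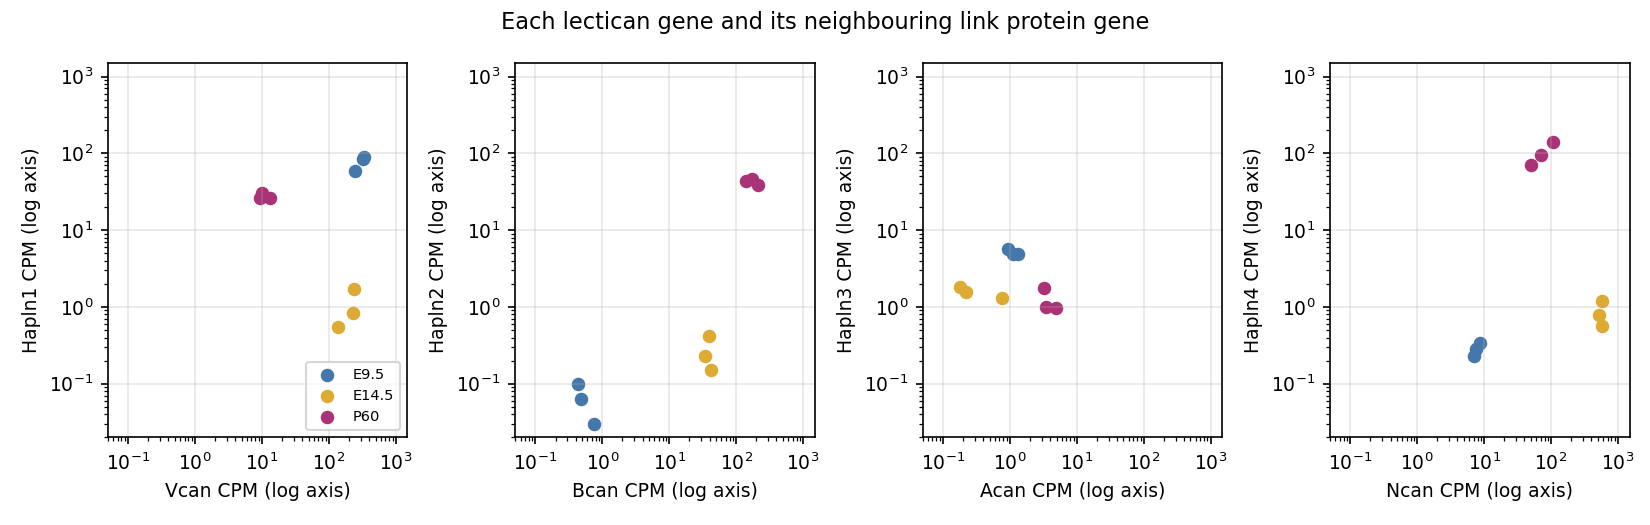
Level of each link protein gene (vertical axis) against the lectican gene beside it in the genome (horizontal axis), in CPM on log axes, 1 point per library coloured by stage. Hapln2 in E9.5 replicate 2 had 0 counts and is drawn at 0.03. From E9.5 to E14.5 the Vcan and Hapln1 points drop in Hapln1 with a smaller change in Vcan, and from E14.5 to P60 the Ncan and Hapln4 points move up in Hapln4 and down in Ncan.

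Libraries of a stage differed in a partly shared way. P60 replicate 2 was the highest of its stage for 7 of the 10 genes (Acan, Bcan, Ncan, Vcan, Hapln4, Tnc and Tnr), and P60 replicate 3 was the lowest for 6. In E14.5, replicate 1 was the lowest for 7 genes, among them Tnr at 9.65 CPM and Tnc at 105 CPM. This library also had the lowest astrocyte marker sum of its stage, 303 CPM against 475 and 460 CPM, and the highest progenitor marker sum, 2630 CPM against 1840 and 1900 CPM. Markers within the astrocyte and neuronal lists did not all move together there. Slc1a2 had 86.9 CPM against 153 and 160 CPM, but Aldh1l1 had 50.6 CPM against 50.1 and 42.5 CPM. Dcx had 880 CPM against 1520 and 1420 CPM, but Tubb3 had 3430 CPM against 2350 and 2210 CPM. The cause of these differences was not tested. Without E14.5 replicate 1 and E9.5 replicate 1 together, an alternative chosen after seeing the data, 1 call of the first step was lost, that of Acan (log2 -1.26; adjusted p = 0.061).

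The genes that make, clear and bind hyaluronan, the chain that lecticans and link proteins attach to, changed in both directions. Of 12 such genes, 4 were higher and 5 lower at E14.5 than at E9.5 (median log2 fold change -0.39), and 3 were higher and 7 lower at P60 than at E14.5 (median -1.52). Has2, the synthase required in the early embryo, had 28.2, 29.7 and 32.9 CPM at E9.5, 2.89, 5.32 and 5.55 CPM at E14.5 and 0.267, 0.0881 and 0.413 CPM at P60, and it fell in both steps (log2 -2.72, adjusted p = 1.6e-05, and -4.15, adjusted p = 3.8e-06). The synthase Has3 had 2.88, 5.67 and 5.2 CPM at E9.5, 12.9, 24.8 and 23 CPM at E14.5 and 1.5, 2.14 and 1.68 CPM at P60. Its E14.5 libraries lay above all others, as those of Ncan and Tnc did. The synthase Has1 was rare throughout but highest at P60, with 2.07, 1.91 and 2.03 CPM against 0.211, 0.14 and 0.201 CPM at E14.5 (log2 3.42; adjusted p = 1.1e-06).

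On the clearance side, the hyaluronidase Hyal2 fell in both steps, with 99.8 ± 4.16 CPM at E9.5, 55 ± 1.59 CPM at E14.5 and 14.4 ± 1.43 CPM at P60 (adjusted p = 0.00012 and 2.6e-07). Cemip2, a cell-surface protein linked to hyaluronan breakdown, averaged 6 ± 1.28 CPM at P60, against 151 ± 19.7 CPM at E14.5 (log2 -4.65; adjusted p = 1.4e-08), and did not pass at E14.5 against E9.5 (adjusted p = 0.27). Its relative Cemip averaged 0.457 ± 0.236 CPM at E9.5, 11.2 ± 4.95 CPM at E14.5 and 9.54 ± 3.49 CPM at P60 (adjusted p = 1.2e-05 for the first step and 0.6 for the second). Hyal1 averaged 1.14 ± 0.41 CPM at P60, against 2.46 ± 0.647 CPM at E14.5 (adjusted p = 0.0076), and Hyal3 stayed under 1 CPM in every library.

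Among the hyaluronan receptors, Hmmr, which also acts on the mitotic spindle, fell 38.8-fold to 0.69 ± 0.219 CPM at P60, against 27 ± 2.55 CPM at E14.5 (adjusted p = 1.2e-08). Cd44 averaged 7.79 ± 0.674 CPM at E9.5, 3.33 ± 0.732 CPM at E14.5 and 4.72 ± 0.433 CPM at P60, with a fall and then a rise (adjusted p = 0.00027 and 0.039). Lyve1, the receptor of lymphatic vessels and some macrophages, averaged 0.0872 ± 0.0833 CPM at E9.5 from 0, 5 and 3 counts, 4.76 ± 1.37 CPM at E14.5 and 0.657 ± 0.35 CPM at P60 (adjusted p = 1.6e-05 and 0.00027). Tnfaip6, which binds hyaluronan and modifies its coats, had 43.9, 26.6 and 39.3 CPM at P60, against 2.62, 2.85 and 3.22 CPM at E14.5 (log2 3.66; adjusted p = 8.8e-08). Like Acan and Hapln1, it was lowest at E14.5, with 7.63, 7.73 and 7.69 CPM at E9.5.

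**Figure D5:**
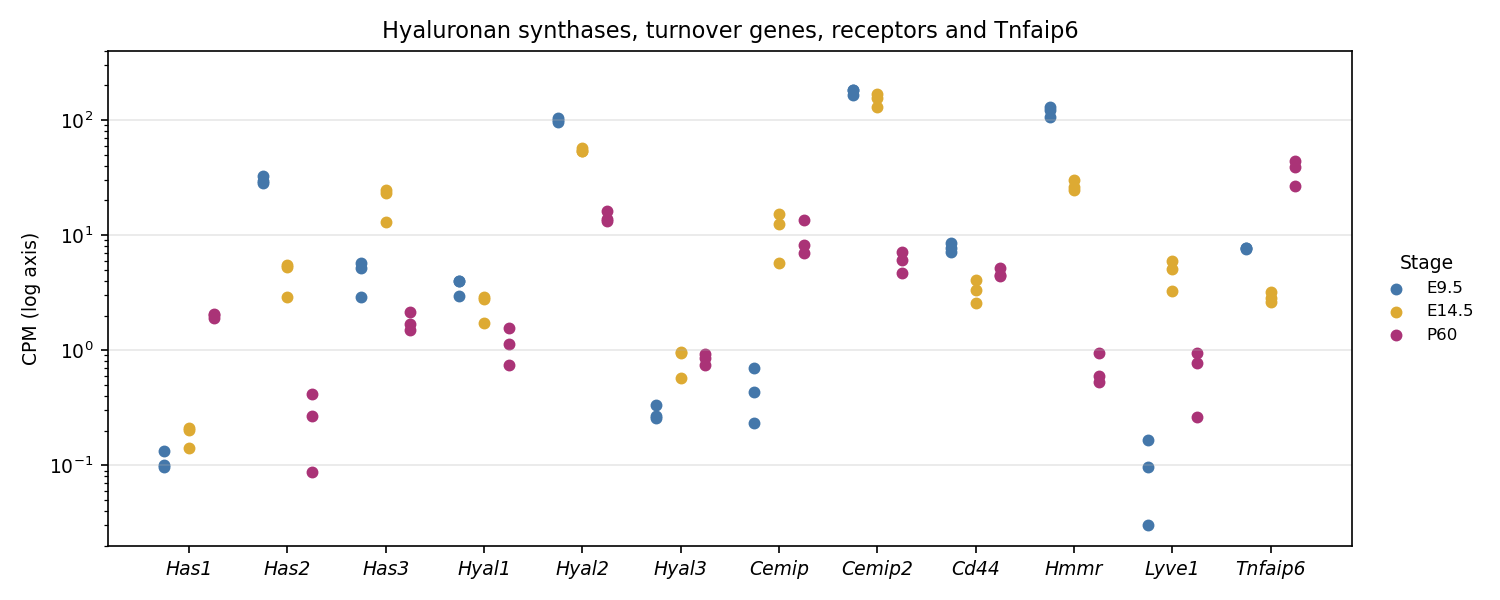
Level of 12 genes of hyaluronan synthesis, turnover and binding in each library, in CPM on a log axis, coloured by stage; Lyve1 in E9.5 replicate 1 had 0 counts and is drawn at 0.03. Has2, Hyal2 and Hmmr stepped down with age, Has3 was highest at E14.5, and Has1 and Tnfaip6 were highest at P60.

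Genes that build and sulfate the chondroitin chains of lecticans changed in both directions. Of 21 tested (22 listed), 8 were higher and 5 lower at E14.5 than at E9.5 (median log2 fold change 0.33), and 7 were higher and 5 lower at P60 than at E14.5 (median 0.15). In the first step the sulfotransferases Chst15 and Chst11 rose (log2 1.39 and 1.09), while Dse, an epimerase that turns chondroitin into dermatan sulfate, and Chst14, which sulfates dermatan, fell (log2 -2.35 and -1.49). Dse averaged 11.3 ± 2.27 CPM at E14.5, against 58.0 ± 6.07 CPM at E9.5 (adjusted p = 7.6e-07). In the second step Csgalnact1, which starts chondroitin chains, averaged 21.4 ± 1.9 CPM at P60, against 2.6 ± 0.541 CPM at E14.5 (log2 3.04; adjusted p = 1.9e-07). B3gat3, of the linker region, also rose (log2 1.68). Chst3, a sulfotransferase of chondroitin, averaged 1.94 ± 0.303 CPM at P60, against 13.1 ± 2.04 CPM at E14.5 (log2 -2.75; adjusted p = 3.1e-07), and the chain synthase Chsy1 fell as well (log2 -2.17).

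Of 11 genes for lectican-cutting proteases and an inhibitor, 3 were higher and 4 lower at E14.5 than at E9.5 (median log2 fold change -0.49), and 3 were higher and 8 lower at P60 than at E14.5 (median -1.47). The gelatinase Mmp9 averaged 0.876 ± 0.055 CPM at E9.5, 25.7 ± 3.46 CPM at E14.5 and 2.2 ± 0.155 CPM at P60, a rise and then a fall (log2 4.87, adjusted p = 1.2e-08, and -3.54, adjusted p = 3e-08). Its course was like that of Ncan and Tnc. Adamts9 and Mmp2 fell in the first step (log2 -1.95 and -1.79) and Adamts5, an aggrecanase, rose (log2 1.18). In the second step the membrane protease Mmp14 fell 13.6-fold to 8.82 ± 0.561 CPM at P60, against 120 ± 31.2 CPM at E14.5 (adjusted p = 1.2e-07), while the inhibitor Timp3 and the aggrecanase Adamts4 rose (log2 1.12 and 0.78).

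All 15 genes for surface receptors and binding partners changed between E9.5 and E14.5, 8 higher and 7 lower at E14.5 (median log2 fold change 0.9). In the second step 5 were higher and 7 lower at P60 (median -0.53). Rtn4r, a neuronal receptor for growth-inhibiting ligands including chondroitin sulfate, averaged 20.5 ± 4.15 CPM at E14.5, against 0.955 ± 0.181 CPM at E9.5 (log2 4.42; adjusted p = 2.3e-07). Cntn1, an axonal protein that binds tenascin-R, rose in both steps, with 2.3 ± 0.528 CPM at E9.5, 39.3 ± 9.82 CPM at E14.5 and 254 ± 47.9 CPM at P60. The integrin chains Itga9 and Itga8, of receptors for tenascin-C, fell in the first step (log2 -3.16 and -2.30), the step in which Tnc rose. In the second step Rtn4rl1 rose (log2 2.15), while the receptor phosphatase Ptprf, which binds chondroitin sulfate, and the syndecan Sdc3 fell (log2 -2.56 and -1.93).

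Of 12 tested genes of other brain proteoglycans, tenascins and net components (13 listed), 9 were higher and 0 lower at E14.5 than at E9.5 (median log2 fold change 2.61), and 8 were higher and 2 lower at P60 than at E14.5 (median 1.69). Decorin (Dcn) averaged 40.5 ± 5.91 CPM at E14.5, against 1.04 ± 0.404 CPM at E9.5 (log2 5.27; adjusted p = 1.3e-07), and Cspg5, a neural transmembrane proteoglycan, 126 ± 30.5 CPM against 5.58 ± 0.857 CPM (log2 4.49; adjusted p = 4e-08). In the second step the secreted proteins Smoc2 and Vwc2 rose (log2 3.35 and 2.44), and the small proteoglycans Bgn and Lum fell (log2 -2.13 and -1.20). Dcn and Lum are also on the mesenchyme marker list and Cspg4 on that of oligodendrocyte precursors. The precursor markers summed to 104 to 119 CPM at E9.5, 72.4 to 102 CPM at E14.5 and 206 to 335 CPM at P60. Most of the E9.5 sum was Pdgfra (60.4, 62.7 and 75.7 CPM) and Sox10 (45.7, 27.3 and 29.4 CPM). Olig2, Cspg4, Gpr17 and Olig1 averaged 10.7, 0.967, 0.906 and 0.612 CPM at E9.5. Of the 6 precursor markers, 4 were called higher and 2 lower in the first step, against 34% and 30.7% of all genes. In the second step 3 were called higher and 0 lower, against 36.7% and 39.4% of all genes. The part of mesenchyme cells and oligodendrocyte precursors in the counts of called genes was not tested. The counts of these 5 lists stand beside the same background of all genes given above for each step.

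Genes with the most similar course to each member were found among 12122 genes with at least 10 CPM in some stage, by the root mean square difference of mean-centred log2 CPM over the 9 libraries. The nearest genes were Zfp518b, N4bp2 and Six3os1 for Vcan (0.18 to 0.20), Nfib, Celf5 and Ina for Ncan (0.30 to 0.35), and Nrn1, Cbln4 and Dlgap1 for Bcan (0.25 to 0.33). For Acan they were Tmem144, Grasp and Map2k1 (0.43 to 0.46). For Hapln2 they were Gjb1, Cmtm5 and Evi2a (0.35 to 0.42), for Hapln4 Cyp4f14, Tmem88b and Hapln2 (0.36 to 0.42), and for Hapln3 Myl12a, Thg1l and Mis18a (0.16 to 0.20). Hapln1 had no close match, its nearest genes being Cited4, Nkx2-9 and Grb7 (0.79 to 0.84). For Tnc they were Scrt2, Otp and the protease Mmp9 (0.33 to 0.44), and for Tnr Dlg2, Ncam2 and Iqsec3 (0.25 to 0.35). Hapln2 was the third nearest gene of Hapln4 and Mmp9 the third nearest of Tnc, but Hapln4 was not among the 3 nearest of Hapln2. The 9 libraries share 3 stages, so these are descriptions of the stage profile.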

How the data were processed

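Mouse central nervous system tissue, dissected by stage as given above, was sequenced in 9 libraries, 3 per stage. Per the labels' protocols they were made by poly(A)-primed full-length cDNA synthesis with PCR and no molecular identifiers. Counting error may therefore exceed that of independent molecules. The tools named are Trimmomatic 0.36 and STAR 2.5.2b and the build is mm10, per the submitters' processing notes. The authors deposited raw read counts per gene, and the counting program, annotation and strand setting are not given in the sources used here. Of 45706 identifiers, 45143 matched GENCODE M21 (GRCm38), the source of symbols, coordinates and exon lengths. The library totals of 30481975 to 35619093 counts and the spread between libraries (biological coefficient of variation 19.9%) set the precision. No library was found to be a copy of another.

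The quasi-likelihood test of edgeR 4.0.16 (R 4.3.3) was run on all 9 libraries in one robust fit with stage as factor, after TMM scaling and the filterByExpr filter, which left 17971 genes. Tests were two-sided, with Benjamini-Hochberg adjustment over those genes and a threshold of 0.05. CPM values used library totals adjusted by TMM, and standard errors are the log2 fold change over the root of the F statistic, which is approximate. The scripts were tested on simulated data. Alternatives were other scalings, filters and lengths, DESeq2 1.42.0, a replicate block, a fit of 2 stages, a fit without robust estimation, and leaving out libraries.

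The members and gene lists were chosen with earlier results of these data known. Named were all members, all hyaluronan genes and, from each other list and consecutive step, the 2 called genes with the largest change in each direction and at least 5 CPM in the higher stage, plus 3 nearest genes per member, leaving out predicted and clone names. The single markers Agt, Aldh1l1, Aqp4, Cnmd, Col2a1, Col9a1, Col11a1, Comp, Cspg4, Dcx, Erbb4, Fgfr3, Gad1 and Gfap were picked after their values were seen. So were Gpr17, Kcnc1, Matn1, Noto, Olig1, Olig2, Opalin, Pdgfra, Pvalb, Slc1a2, Slc1a3, Snap25, Sox10, T and Tubb3. Annotated genes that overlap members were rare: Gm38039 on Tnr had 0 counts, 8030451A03Rik on Tnc at most 20 per library and Gm4117 on Vcan at most 25. Deviations of same-numbered libraries from their stage means correlated by 0.141 to 0.37 between E14.5 and E9.5 but by as little as -0.224 in the pairs with P60, so the numbers were not taken to pair libraries.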

Additional observations from a re-analysis of the deposited data

How the results depend on the processing

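Of 569 results for single genes under other settings, 553 kept their direction and call, 11 lost the call and 5 gained one, and no direction was reversed. The number of genes lower at E14.5 than at E9.5 was 4, and 2 to 4 when 1 library was left out, with 2 without E14.5 replicate 2, where Acan and Vcan lost their calls (adjusted p = 0.06 and 0.055). Besides the settings named with Vcan above, its first-step call was lost with unscaled library totals (log2 -0.48) and without a filter on low counts (-0.51). With a replicate block, all 4 lower and 6 higher calls of the first step and all calls at P60 against E9.5 held in number, while at P60 against E14.5 the number higher was 6, as Tnr passed (log2 0.88; adjusted p = 0.025). Not every library correlated best with its own number in another stage.

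Dividing by the longest transcript in place of the summed exons moved the Bcan share at P60 to 82.6%, the Ncan share at E14.5 to 73%, and the link protein to lectican ratio to 0.591 at E9.5 and 0.779 at P60. Leaving out 1 library moved the Bcan share at P60 over 77.8 to 80.2% and the Ncan share at E14.5 over 75 to 77.9%. The scaling moved the median of all genes at P60 against E14.5 between -0.20 (library totals) and 0.10 (upper quartile), and at P60 against E9.5 to 0.20 (upper quartile), which is small beside the called changes of the members in those comparisons, the smallest of which was 1.23. Low depth limits Acan at E14.5, Hapln2 at both embryonic stages and Bcan, Hapln4 and Tnr at E9.5, where no library held more than 27 counts, and with them the first-step changes of these genes. The causes of these shifts were not tested.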
